A study of Drosophila melanogaster with 8 samples.

Results

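Gene expression was compared between *Drosophila melanogaster* larvae with a homozygous deletion of *Smn* and *WT* larvae, in 4 of the 8 RNA-seq libraries of the series. The Smn deletion group held 2 libraries and so did the *WT* group, the *w1118* strain. Both minor spliceosomal snRNA deletion strains, *U12* and *U6atac*, with 2 libraries each, entered the estimate of the spread, and their levels are given beside some of the called genes without a test. All libraries were made from RNA of whole larvae at L3, the third larval instar, and the larvae of a library were pooled. Of the 17473 genes in the deposited tables, the 11438 with a mean of at least 1 TPM over the 4 libraries were tested. TPM is a length-scaled measure of transcript abundance in which every library has the same sum. The deletion was made with Cas9 and 2 guide RNAs in the germline, crossed back to *WT* for several generations and kept over a balancer chromosome that carries GFP, so homozygous larvae were picked by the lack of green light. The *WT* larvae carry neither the deletion nor the balancer, and the deletion strain is a single allele, so effects of the balanced stock cannot be told apart from those of the deletion.

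SMN, the survival motor neuron protein, loads the ring of Sm proteins onto the small nuclear RNAs of the spliceosome, both of the abundant major form and of the rare minor form. Loss of its human counterpart causes spinal muscular atrophy, a disease of motor neurons. Fly larvae without zygotic *Smn* live for some time on the product that the mother laid into the egg, and grow slowly. At the end of larval life a fly turns from growth to metamorphosis under pulses of the steroid ecdysone, and the fat body, the salivary glands and the epidermis under the cuticle then change much of what they express. The cuticle, glue and fat body storage genes were set apart here, and the account below is of the other genes, by function and by tissue.

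The sequences that define the allele are the targets of both guide RNAs, which the study's oligo list names for *Smn*, on chromosome arm 3L. They are shown because the group is defined by the cut between them. Each is 20 nt long, written 5′ to 3′ without the cloning overhang.
Smn target 1: aaacgtgatacttgcctgat
Smn target 2: aaagaagccagcaccactag
Their positions in the gene were not located, since no genome sequence was used here. Without them the part of *Smn* that is missing is not known, and the level of the gene is a weaker check of the labels than it would otherwise be.

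*Smn* lies on the minus strand of 3L between 16580398 and 16581547 in dm6, the build of the deposited tables. It had 4.57 and 0.653 TPM in the Smn deletion libraries, against 24.7 and 28.3 TPM in the WT libraries. Both Smn deletion libraries lay below both *WT* libraries, but limma did not call the difference as tested here (log2 fold change −3.18 ± 1.38, SE, adjusted p = 0.325, unadjusted p = 0.0474). After centring on the 10 genes listed around it, *Smn* was called (log2 fold change −3.81, adjusted p = 0.0176), and in the other 13 alternatives it was not (adjusted p 0.288 to 0.616). No exact permutation test of 2 against 2 libraries can go below p = 0.333. Of the 5 genes listed on either side of *Smn*, 9 were tested and none was called by limma, and none had an unadjusted p under 0.05 except *CG4229*, with 204 and 7.35 TPM in Smn deletion, against 0.0783 and 0 TPM in WT (unadjusted p = 0.00183). The neighbour *mbf1* had 54.4 and 33.2 TPM in Smn deletion, against 92.8 and 104 TPM in WT, and *Rpn12*, a proteasome subunit on the other side, had 37.1 and 196 TPM in Smn deletion, against 393 and 39.2 TPM in WT.

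The libraries of one strain differed widely, and this sets what can be called. Across the genes tested, the Spearman correlation between the 2 libraries was 0.684 for Smn deletion and 0.683 for *WT*, and the libraries were over 2-fold apart for 49.6% and 50.3% of the genes. Genes on adjacent lines of the deposited tables tended to deviate together, at a correlation of 0.523 in Smn deletion and 0.438 in *WT*, against 0.319 and 0.213 when the genes were put in chromosome order. What causes this was not tested. The deposited values carry no read numbers, and the read totals that the study lists for each library were not used here, so no counting error is given for a single gene. The study describes the libraries of a strain as biological repeats, each a pool of larvae taken at random, and p-values measure the spread between these pools and their libraries.

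Markers of fat body and salivary gland differed widely between the groups. The fat body storage list holds 6 genes, among them those of proteins that fill the hemolymph in late L3. It summed to 3.89 and 0.507 TPM in Smn deletion, against 37433 and 64728 TPM in WT. *Fbp1*, a receptor for these proteins, is part of that sum. It had 0.0992 and 0.0472 TPM in Smn deletion, against 26696 and 32428 TPM in WT. In the salivary gland, the glue gene *Sgs3* had 0.224 and 0.0413 TPM in Smn deletion, against 9759 and 4834 TPM in WT, and *Sgs4* had 0.250 and 0.0907 TPM in Smn deletion, against 713 and 189 TPM in WT, neither called by limma (adjusted p = 0.152 and 0.117). Of the 14 tested genes of the glue list none was called, 10 lay below both *WT* libraries and 4 above, and at an unadjusted p under 0.05 there were 10 lower and 3 higher. From RNA-seq data, the study assigned the Smn deletion strain to a different stage of L3 than *WT* larvae. It grouped the *U12* and *U6atac* deletion strains with *WT*. Storage and glue genes are expressed in late L3, and for every result below the developmental stage reached and the genotype cannot be told apart. Muscle was present in both groups, with 2690 and 2554 TPM in Smn deletion, against 2579 and 1590 TPM in WT for *Mhc*, muscle myosin. The neuronal marker *elav* had 29.9 and 10.02 TPM in Smn deletion, against 18.6 and 20.8 TPM in WT. The hemocyte marker *Hml* had 11.03 and 81.6 TPM in Smn deletion, against 254 and 563 TPM in WT. A further hemocyte marker, *NimC1*, had 7.08 and 20.5 TPM in Smn deletion, against 58.8 and 15.4 TPM in WT, with groups that overlap. The yolk genes *Yp1* and *Yp2* stayed under 1 TPM in all 4 libraries. In whole larvae, fewer cells of a type and less RNA per cell cannot be told apart.

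Limma called 175 genes at an adjusted p under 0.05, of which 143 rose (1.25% of the genes tested) and 32 fell (0.280%). At an unadjusted p under 0.05 there were 840 higher (7.34%) and 871 lower genes (7.61%). Both Smn deletion libraries lay above both *WT* libraries for 2329 genes (20.4%) and below them for 2962 (25.9%), and the groups did not overlap for any of the 175 called genes. Over all genes tested the median log2 fold change was −0.19, so more genes lay lower than higher, and scaling by median ratios moved this median to −0.03. The mean of one group was under 1 TPM in 84.0% of them, against 15.1% of the genes tested. Such a gene passed the minimum level only through the group where it is high. Of the 175 called genes, 53 belonged to the lists set apart, 42 risen and 5 fallen cuticle genes and 6 fallen fat body storage genes, and the other 122 were made up of 101 rises and 21 falls.

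**Figure D1:**
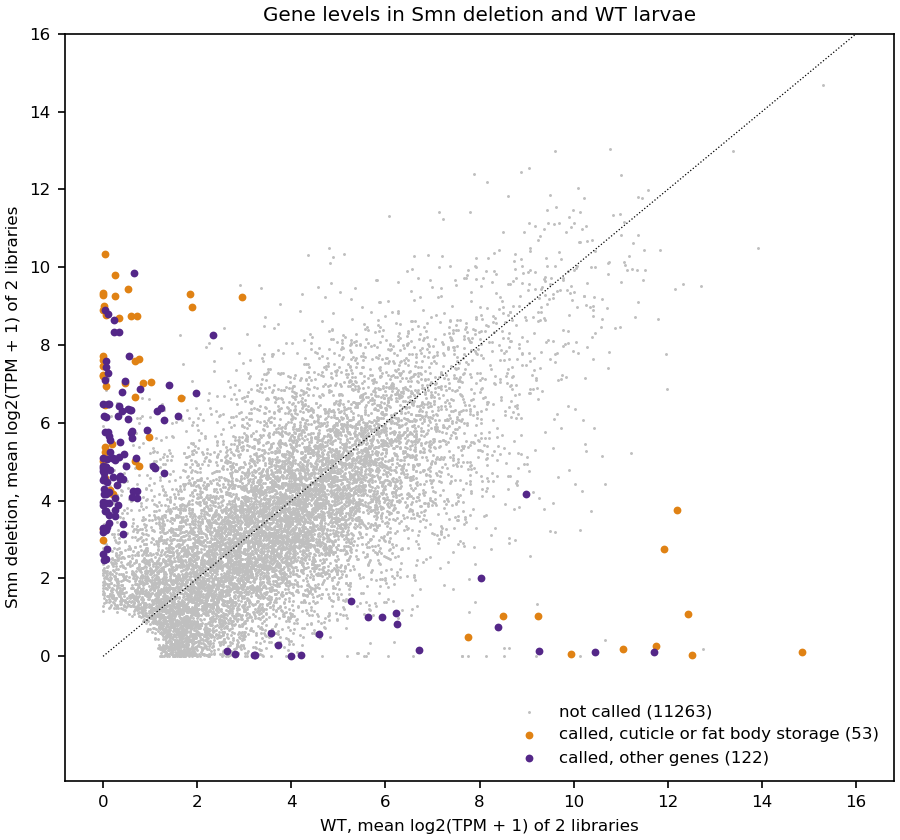
Mean log2(TPM + 1) of each tested gene in Smn deletion (vertical axis) and in WT (horizontal axis), 2 libraries each, with the line of equal levels dotted. The 122 called genes outside the lists set apart (purple) and the 53 called genes of the cuticle and fat body storage lists (orange) mostly sit along the axes, and 84.0% of all called genes have a mean under 1 TPM in one group.

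Among the 101 rises outside those lists, 84 had both *WT* libraries under 1 TPM, and 29 had a *WT* library listed at 0. Their median level was 35.7 and 29.99 TPM in the Smn deletion libraries and 0.101 and 0.101 TPM in the *WT* libraries. All but 2 are annotated as protein coding, 89 have only a CG number for a symbol, and their median gene length was 1187 bases, against 1892 for all genes tested. In all 101, both Smn deletion libraries lay above the other 6 libraries as well, those of *U12* and *U6atac* deletion included. All 8 libraries entered the estimate of the spread, so this is partly set by how the genes were called. With only the 4 libraries compared, 11 of the 101 stayed called. Another called rise, the cuticle genes set apart included, lay within 20 kb for 40 of the 101. How often this holds over all genes tested was not counted.

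The largest of these rises was *CG7406*, with 101 and 8279 TPM in the Smn deletion libraries, against 0.273 and 0.968 TPM in the WT libraries. Its 2 Smn deletion libraries lay far apart, and the log2 fold change was 9.18 ± 1.69 (SE, adjusted p = 0.0346). *CG12480* had 1038 and 220.2 TPM in Smn deletion, against 0 and 0.0570 TPM in WT, and *CG11581*, close to it on the X chromosome, had 109 and 338 TPM in Smn deletion, against 0.0934 and 0 TPM in WT (log2 fold changes 8.86 ± 0.87 and 7.53 ± 0.75). Both genes were listed at 0 in a *WT* library. On 3L, *CG13699* and *CG4998* had 1396 and 143 TPM in Smn deletion, against 0.0858 and 0.0787 TPM in WT, for *CG13699*, and 229 and 449 TPM in Smn deletion, against 0.0925 and 0.276 TPM in WT, for *CG4998*. Neither overlapped between the groups (adjusted p = 0.00879 and 0.0017). *CG14107* had 277 and 569.7 TPM in Smn deletion, against 0.0844 and 0.289 TPM in WT (log2 fold change 8.40 ± 0.75, adjusted p = 0.0017).

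*ImpL1*, named for its induction by ecdysone in imaginal discs, lies within 20 kb of *CG14107* on 3L and had 309.9 and 143 TPM in the Smn deletion libraries, against 0.392 and 0.560 TPM in the WT libraries. All Smn deletion values were over 100 TPM and all *WT* values under 1 TPM, with a log2 fold change of 7.16 ± 0.79 (SE, adjusted p = 0.00315). *dyl*, dusky-like, a zona pellucida domain protein of the apical matrix on which cuticle is laid down, had 368 and 278 TPM in Smn deletion, against 0.0953 and 0.445 TPM in WT (log2 fold change 7.99 ± 0.83, adjusted p = 0.00245). *Tb*, the Tubby gene, had 108 and 175 TPM in Smn deletion, against 0.0705 and 0 TPM in WT, and the log2 fold change was 7.06 ± 0.64 (adjusted p = 0.0017). It is a member of the Tweedle family of cuticle proteins whose symbol the cuticle list did not match, so it counts here among the other genes. *Vajk4*, of a further family of cuticle proteins, was named after its values were seen, with 65.7 and 16.3 TPM in Smn deletion, against 0.267 and 0.0646 TPM in WT (adjusted p = 0.0143). The rises outside the cuticle list thus held at least these genes of cuticle and apical matrix.

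The remaining large rises have no function in their symbol. *CG15731* had 210.00 and 141 TPM in Smn deletion, against 0.0563 and 0.0396 TPM in WT, and *CG3546* had 57.04 and 409 TPM in Smn deletion, against 0.160 and 0 TPM in WT. *CG9411* and *CG12164* also had Smn deletion libraries far apart, with 368 and 47.9 TPM in Smn deletion, against 0.598 and 0.177 TPM in WT, for *CG9411* (adjusted p = 0.0397), and 294 and 40.99 TPM in Smn deletion, against 0.591 and 0.106 TPM in WT, for *CG12164* (adjusted p = 0.0124). *CG14423* was listed at 0 in both *WT* libraries and had 71.8 and 108 TPM in the Smn deletion libraries, so no fold is given. *CG7548*, on 3L, had 174 and 44.1 TPM in Smn deletion, against 0.158 and 0 TPM in WT (log2 fold change 6.37 ± 0.75). Among rises chosen after their values were seen for a known role, *prc*, pericardin, a collagen-like protein of the matrix around the heart, had 298 and 307 TPM in Smn deletion, against 4.86 and 3.40 TPM in WT (log2 fold change 5.90 ± 0.94, adjusted p = 0.0176). *Muc91C*, a mucin, had 37.5 and 19.9 TPM in Smn deletion, against 0.0659 and 0.0671 TPM in WT, and *lectin-37Da*, a C-type lectin, had 11.7 and 33.9 TPM in Smn deletion, against 0.503 and 0.0134 TPM in WT.

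**Figure D2:**
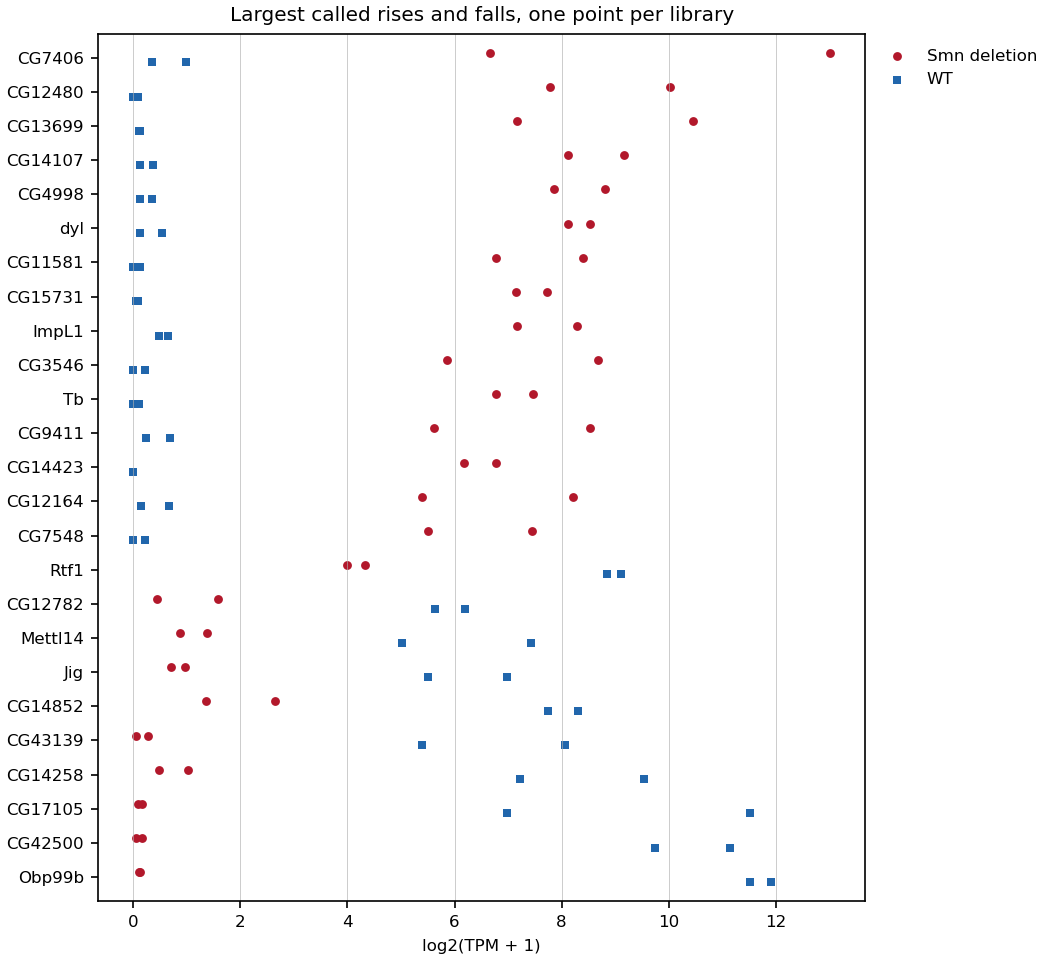
Level of the 15 largest rises and 10 largest falls among the called genes outside the lists set apart, as log2(TPM + 1), one point per library (Smn deletion, red circles, WT, blue squares, 2 libraries each). The genes were chosen as called and not overlapping, so the gap between the groups is part of the choice. Both *WT* libraries lie under 1 TPM for every rise shown, while *Rtf1* keeps 14.99 and 19.1 TPM in Smn deletion.

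The 21 falls were led by *Obp99b*, a member of the odorant-binding protein family, which had 0.0959 and 0.0733 TPM in the Smn deletion libraries, against 2932 and 3832 TPM in the WT libraries. Its log2 fold change was −11.59 ± 1.09 (SE, adjusted p = 0.00196), while *U12* and *U6atac* deletion libraries held between 491 and 1542 TPM. *CG42500* had 0.114 and 0.0373 TPM in Smn deletion, against 857 and 2275 TPM in WT (log2 fold change −10.34 ± 1.26, adjusted p = 0.00416). *CG17105* had 0.124 and 0.0680 TPM in Smn deletion, against 126 and 2934 TPM in WT, with the 2 *WT* libraries far apart. *CG14852* and *Jig* lie within 20 kb of each other on 3R and both fell, *CG14852* to 5.30 and 1.58 TPM, against 214 and 315 TPM in *WT*, and *Jig* to 0.948 and 0.623 TPM, against 44.2 and 125 TPM in *WT*. *CG14258* and *CG43139*, also on 3R, had 1.04 and 0.399 TPM in Smn deletion, against 149 and 744 TPM in WT, for *CG14258*, and 0.215 and 0.0387 TPM in Smn deletion, against 265 and 40.996 TPM in WT, for *CG43139*. For all of these genes the Smn deletion libraries were the lowest of all 8.

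Some other falls had levels in the *U12* and *U6atac* deletion libraries that also lay below *WT*, a difference that was not tested. *Rtf1*, a subunit of the Paf1 complex that travels with RNA polymerase II, had 14.99 and 19.1 TPM in the Smn deletion libraries, against 549.6 and 461 TPM in the WT libraries. The *U12* and *U6atac* deletion libraries held between 8.10 and 14.5 TPM (Smn deletion against *WT*, log2 fold change −4.81 ± 0.94, adjusted p = 0.0429). *Mettl14*, a subunit of the enzyme that methylates adenosine in mRNA, had 0.832 and 1.59 TPM in Smn deletion, against 171 and 31.5 TPM in WT, and the *U12* and *U6atac* deletion libraries held between 1.16 and 9.60 TPM. *CG12782* had 1.996 and 0.358 TPM in Smn deletion, against 72.7 and 48.7 TPM in WT, with the other deletion libraries between 0.121 and 1.30 TPM. *Sox15*, a transcription factor named after its values were seen, had 0.310 and 0.153 TPM in Smn deletion, against 9.04 and 16.2 TPM in WT. Of the 21 falls, 11 had both Smn deletion libraries below the other 6 libraries and 10 did not. With only the 4 libraries compared, 2 of the 21 stayed called. The deletion strains were not tested against each other here.

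Which of these calls held depended on the libraries and the fit. Of the 25 genes drawn from the rule, 10 were called under all 14 other ways of processing tried, *CG12480*, *CG14107*, *CG4998*, *dyl*, *CG11581*, *ImpL1*, *Tb*, *CG14423*, *Obp99b* and *CG42500*, and the sign of the fold change held for all 25. Without *WT* replicate 1, *CG7406*, *CG13699*, *CG15731*, *CG9411*, *CG12164*, *CG43139*, *CG14852*, *Jig*, *Mettl14* and *Rtf1* lost the call (adjusted p between 0.0606 and 0.152). Without *WT* replicate 2, *CG7406*, *CG9411*, *CG12164*, *CG17105*, *CG14852*, *Jig* and *Rtf1* lost it (0.0574 to 0.122). Leaving out Smn deletion replicate 1 ended the call of *CG9411*, *CG17105*, *CG14258*, *CG43139*, *CG14852*, *Jig*, *Mettl14* and *Rtf1* (0.0606 to 0.173), and leaving out replicate 2 that of *CG17105*, *CG14258*, *CG43139*, *CG14852*, *Jig*, *Mettl14*, *CG12782* and *Rtf1* (0.067 to 0.134). With only the 4 libraries compared, 13 of the 25 lost the call, *CG3546* and *CG7548* among them (0.0519 to 0.164). *Jig*, *Mettl14* and *Rtf1* lost it with the replicate number as a block (0.0516 to 0.0665), and *CG14852*, *Jig* and *Rtf1* with median-ratio scaling (0.0584 to 0.0598). *CG7406*, *CG9411*, *CG17105*, *CG43139* and *Mettl14* lost it with no minimum level (0.07 to 0.0995) and without a trend (0.0545 to 0.0808). After centring on listed neighbours *Rtf1* had a log2 fold change of −2.68 (adjusted p = 0.252), against −4.81 as deposited, and *Mettl14* −2.67 (adjusted p = 0.14), against −5.10. *CG12480*, *CG14107*, *CG4998*, *CG3546*, *Tb*, *CG14423*, *CG14852*, *Mettl14* and *Rtf1* overlap another gene in the tables, and as the sources used here do not say that strand was kept, reads of overlapping genes may not be told apart.

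Beyond single genes, 38 lists of genes by tissue and function were described, with 901 tested genes. Only *ImpL1*, from the ecdysone response list, and *Obp99b*, from the odorant-binding list, were called by limma, and 36 lists had no called gene. At an unadjusted p under 0.05, 49 of the 901 genes were higher and 62 lower. The lists are therefore described by their levels, by how many tested members did not overlap between the groups, and by the median log2 fold change, beside 20.4% above, 25.9% below and −0.19 over all genes tested. No test of a list was made. A member counted as tested had passed the minimum level, in some cases through one group alone, so these counts and medians are descriptions.

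**Figure D3:**
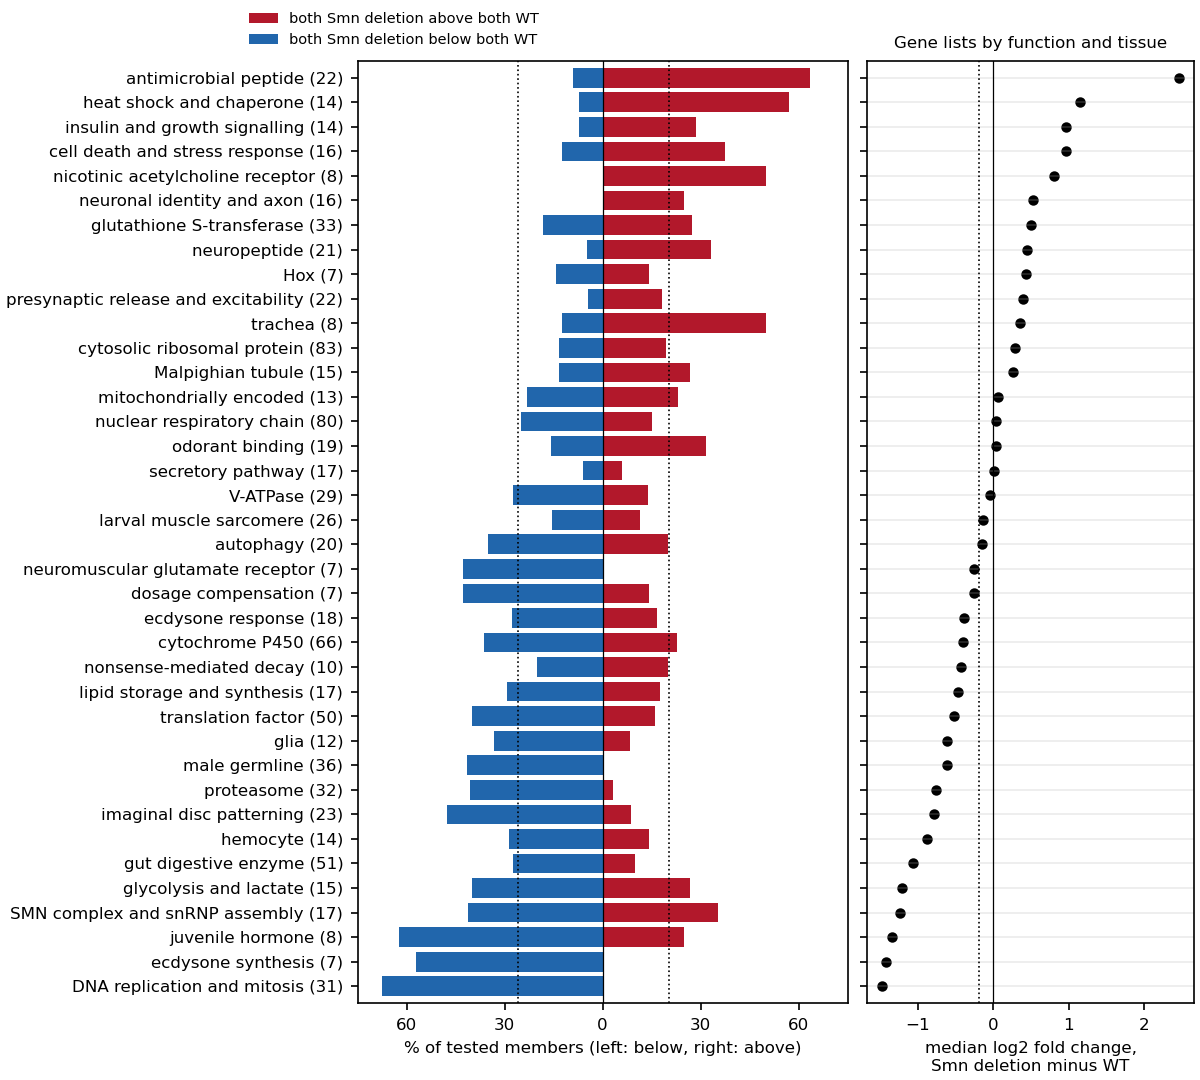
Left, share of the tested members of each list (number in brackets) whose 2 Smn deletion libraries lie both above (red, to the right) or both below (blue, to the left) the 2 WT libraries, with the shares over all genes tested dotted. Right, the median log2 fold change of the list. DNA replication and mitosis stands at the low end with a median of −1.47 and antimicrobial peptides at the high end with 2.46.

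Genes of DNA replication and mitosis, which cycling cells use, had the lowest median of the 38 lists in the full comparison, while another list was lower when Smn deletion replicate 1, Smn deletion replicate 2 or *WT* replicate 2 was left out. None of the 31 tested members had both Smn deletion libraries above both *WT* libraries and 21 (67.7%) lay below, 8 at an unadjusted p under 0.05, with a median of −1.47 (−1.65 without *WT* replicate 2 to −1.33 without *WT* replicate 1) and one sign in all 14 alternatives. Summed over the list, the level was 276 and 184 TPM in Smn deletion, against 1258 and 1249 TPM in WT. The most abundant members were *Top2*, topoisomerase II, with 10.4 and 18.5 TPM in Smn deletion, against 347 and 45.4 TPM in WT, and *RnrL*, the large subunit of ribonucleotide reductase, with 4.09 and 7.34 TPM in Smn deletion, against 9.47 and 320.02 TPM in WT. Among members chosen after their values were seen, *stg*, the Cdc25 phosphatase that starts mitosis, had 1.12 and 2.93 TPM in Smn deletion, against 30.9 and 30.5 TPM in WT (unadjusted p = 0.00168, adjusted p = 0.0761). *aurB*, Aurora B kinase, had 0.769 and 1.48 TPM in Smn deletion, against 5.16 and 126 TPM in WT. The helicase that unwinds DNA ahead of the fork is built of Mcm subunits, and *Mcm3* had 6.51 and 0.371 TPM in Smn deletion, against 20.6 and 22.8 TPM in WT, *Mcm7* 1.78 and 0.975 TPM in Smn deletion, against 9.96 and 14.9 TPM in WT and *dpa*, its Mcm4 subunit, 6.87 and 2.88 TPM in Smn deletion, against 20.7 and 42.2 TPM in WT. *CycE*, the cyclin of entry into S phase, had 2.26 and 3.47 TPM in Smn deletion, against 13.7 and 9.88 TPM in WT. The sliding clamp *PCNA* had 38.2 and 5.68 TPM in Smn deletion, against 58.8 and 65.7 TPM in WT. *CycA* had the highest fold change of the list, and its groups overlap, at 31.96 and 10.9 TPM in Smn deletion, against 2.05 and 21.1 TPM in WT. None of these was called by limma.

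**Figure D4:**
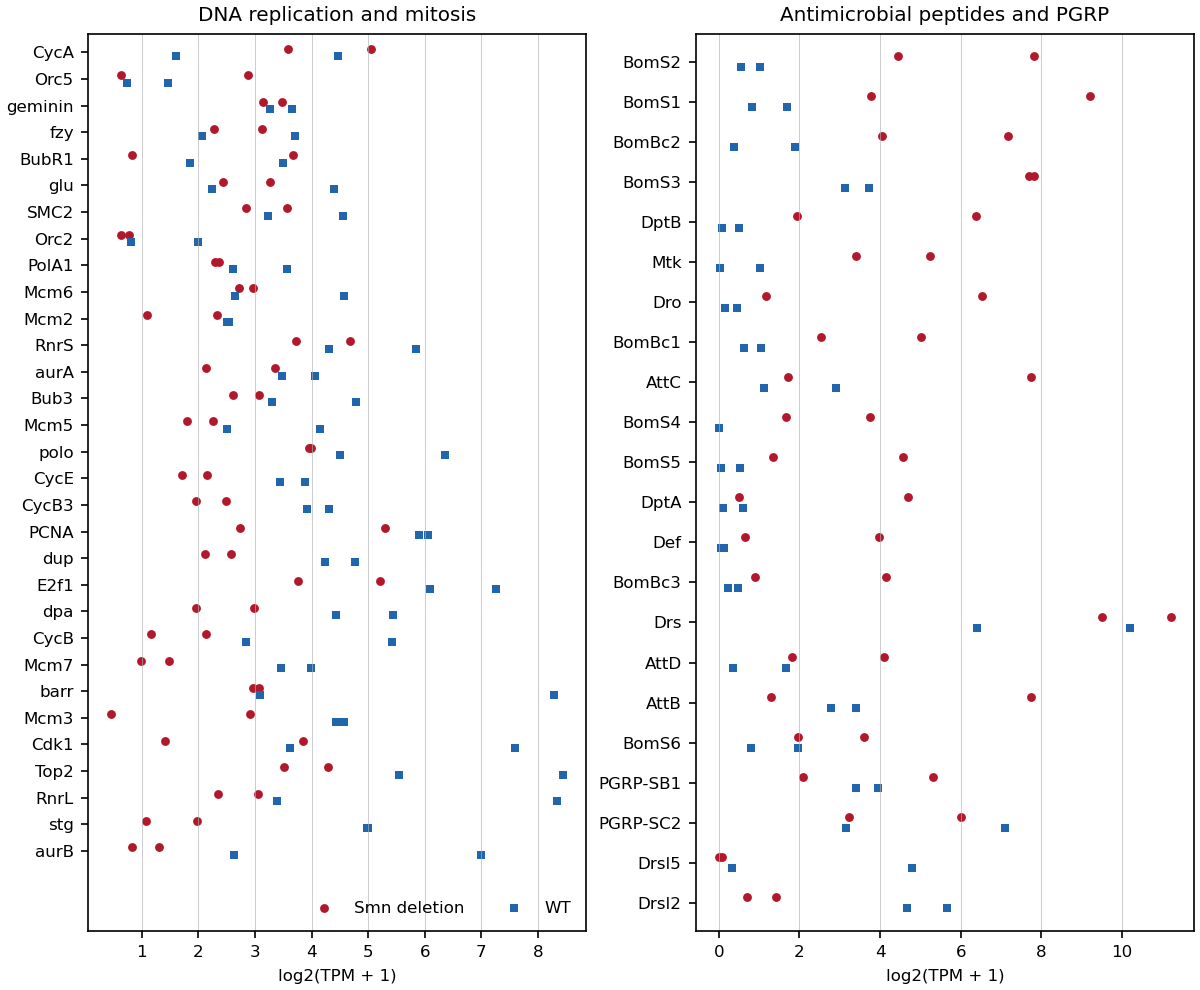
Level of every tested member of the DNA replication and mitosis list (left) and of the antimicrobial peptide list (right), as log2(TPM + 1), one point per library (Smn deletion, red circles, WT, blue squares, 2 libraries each), ordered by fold change. In 21 of 31 replication genes both Smn deletion points lie left of both WT points, and in 14 of 22 immune genes they lie right of them.

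Imaginal disc genes, which pattern the future adult organs, and genes of the male germline showed few members above *WT*. The discs had 2 of 23 tested members above both WT libraries and 11 below, with a median of −0.79 (−1.24 without *WT* replicate 2 to −0.96 without Smn deletion replicate 2). *ap*, the selector of the dorsal wing, had 2.60 and 6.29 TPM in Smn deletion, against 24.7 and 394 TPM in WT, whereas *sd*, the partner of Vestigial, had 193 and 127 TPM in Smn deletion, against 10.9 and 90.5 TPM in WT. *eya*, a gene of eye determination chosen after its values were seen, had 1.71 and 0.412 TPM in Smn deletion, against 38.6 and 6.53 TPM in WT. Male germline genes had 0 of 36 tested members above both WT libraries and 15 below (median −0.61, −1.10 without *WT* replicate 2 to −0.42 without Smn deletion replicate 2). *S-Lap1* and *S-Lap4*, leucyl aminopeptidases of sperm, had 109.8 and 119 TPM in Smn deletion, against 159 and 89.8 TPM in WT, for *S-Lap1*, and 27.6 and 75.9 TPM in Smn deletion, against 274 and 80.8 TPM in WT, for *S-Lap4*. Both are members of a family of close copies, between which reads may be split. The testis tubulin gene *betaTub85D* had 19.4 and 314 TPM in Smn deletion, against 38.03 and 11.4 TPM in WT, with groups that overlap. The labels do not give the share of males in each pool. Hox genes had 1 of 7 tested members above both WT libraries and 1 below. *Scr* had 51.8 and 1.89 TPM in Smn deletion, against 1.54 and 2.48 TPM in WT, and *abd-A* had 2.32 and 3.71 TPM in Smn deletion, against 4.04 and 42.5 TPM in WT.

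The medians of the neuronal lists lay above 0 in the values as deposited. Genes of neuronal identity and axons had 4 of 16 tested members above both WT libraries and 0 below, with a median of 0.53 that changed sign without Smn deletion replicate 1, to −0.14. The most abundant, the adhesion molecule *Nrg*, had 2098 and 27.3 TPM in Smn deletion, against 106 and 64.5 TPM in WT, so one library made most of its level. Presynaptic genes had 4 of 22 tested members above both WT libraries and 1 below (median 0.40, −0.07 without *WT* replicate 2). *Syt1*, synaptotagmin, the calcium sensor of transmitter release, had 122 and 13.8 TPM in Smn deletion, against 87.6 and 165 TPM in WT, and *Rop*, a Sec1 family protein of vesicle fusion, had 9.96 and 83.8 TPM in Smn deletion, against 127 and 38.2 TPM in WT. All 8 tested subunits of the nicotinic acetylcholine receptor, the main excitatory receptor of the fly brain, had a fold change above 0, at 0.04 to 2.18 on the log2 scale, and 4 did not overlap between the groups. The largest was *nAChRalpha4*, with 53.9 and 5.01 TPM in Smn deletion, against 5.43 and 1.51 TPM in WT. Of the 8 subunits, 2 had a *WT* mean under 1 TPM and passed the minimum level only through the Smn deletion group. The same held for 2 of the 16 identity and axon genes and 1 of the 22 presynaptic genes. In these lists 0 genes passed only through *WT*, so the signs and medians are partly set by the minimum. With no minimum the receptor median was 0.71, against 0.81.

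Neuropeptide genes had 7 of 21 tested members above both WT libraries and 1 below (median 0.44, 0.14 without Smn deletion replicate 1 to 0.84 without *WT* replicate 1). Of the 21, 5 had a *WT* mean under 1 TPM and passed the minimum level only through the Smn deletion group, and 0 only through *WT*. *Dh44*, a diuretic hormone, had 8.55 and 147 TPM in Smn deletion, against 1.90 and 2.74 TPM in WT, and *Proc*, proctolin, had 12.7 and 2.81 TPM in Smn deletion, against 157 and 8.83 TPM in WT. Chosen after its values were seen, *FMRFa* had 13.4 and 5.42 TPM in Smn deletion, against 0.664 and 0.896 TPM in WT (unadjusted p = 0.00373). At the neuromuscular junction, none of the 7 tested genes of the glutamate receptor list was above both *WT* libraries and 3 were below, with a median of −0.25 (−1.15 without *WT* replicate 1 to −0.09 without Smn deletion replicate 1). *dlg1*, the scaffold of the postsynaptic side, had 365 and 28.4 TPM in Smn deletion, against 61.7 and 29.7 TPM in WT, and *Neto*, an auxiliary subunit, had 8.94 and 6.41 TPM in Smn deletion, against 0.254 and 43.97 TPM in WT. Glia had 1 of 12 tested members above both WT libraries and 4 below, and *Gs2*, glutamine synthetase, had 205 and 294 TPM in Smn deletion, against 689.6 and 2273 TPM in WT, while the citrate transporter *Indy* had 165 and 115 TPM in Smn deletion, against 140.03 and 183 TPM in WT. The glial marker *repo* had 1.77 and 0.437 TPM in Smn deletion, against 3.20 and 1.90 TPM in WT.

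The genes that the study followed from splicing to phenotype were not called in their total level. *Pcyt2*, an enzyme of phosphatidylcholine synthesis, had 5.45 and 1.57 TPM in Smn deletion, against 1.65 and 64.4 TPM in WT (log2 fold change −1.69 ± 2.13, adjusted p = 0.742). *Zmynd10*, needed to assemble the dynein arms of cilia, had 15.01 and 5.26 TPM in Smn deletion, against 11.4 and 3.34 TPM in WT (log2 fold change 0.45 ± 1.25, adjusted p = 0.9), and *Fas3*, the adhesion molecule fasciclin 3, had 28.9 and 103 TPM in Smn deletion, against 87.4 and 10.6 TPM in WT (log2 fold change 0.81 ± 1.76, adjusted p = 0.868). In each of them the *WT* libraries lay further apart than the group means. TPM of a whole gene does not measure the use of its splice sites.

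Sarcomere genes had 3 of 26 tested members above both WT libraries and 4 below, with a median of −0.13 (−0.73 without Smn deletion replicate 1 to 0.47 without Smn deletion replicate 2) that changed sign in 4 of the 14 alternatives. *Act57B*, a muscle actin, had 4253 and 3895 TPM in Smn deletion, against 2023 and 4581 TPM in WT, and *wupA*, troponin I, had 186 and 10981 TPM in Smn deletion, against 6095 and 38927 TPM in WT. The groups overlap for both genes, and *wupA* ranged widely within each group.

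Hemocytes, the blood cells, had 2 of 14 tested members above both WT libraries and 4 below (median −0.87, −0.88 without *WT* replicate 1 to −0.0033 without *WT* replicate 2). *Pxn*, a peroxidase of the basement membrane, came nearest to a call in this list, with 25.2 and 5.83 TPM in the Smn deletion libraries, against 3197 and 537 TPM in the WT libraries (log2 fold change −6.62 ± 1.55, adjusted p = 0.0864). *PPO1*, the prophenoloxidase of crystal cells, had 14.4 and 631 TPM in Smn deletion, against 54.8 and 6470 TPM in WT. Collagen IV, which hemocytes and fat body secrete, went the other way, with 308 and 77.6 TPM in Smn deletion, against 48.9 and 29.7 TPM in WT for *Col4a1*, chosen after its values were seen.

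Among tubular tissues, trachea had 4 of 8 tested members above both WT libraries and 1 below, with *verm*, a chitin deacetylase that shapes tracheal tubes, at 522 and 694 TPM in Smn deletion, against 27.7 and 397 TPM in WT, and *serp*, its relative, at 158 and 336 TPM in Smn deletion, against 249.8 and 381 TPM in WT. Malpighian tubule genes had 4 of 15 tested members above both WT libraries and 2 below. Urate oxidase, *Uro*, had 52.9 and 599.7 TPM in Smn deletion, against 1977 and 43.6 TPM in WT, with groups that overlap, and *salt* had 38.8 and 15.8 TPM in Smn deletion, against 29.3 and 72.2 TPM in WT. A further tubule marker, *ry*, did not overlap, with 5.47 and 1.94 TPM in Smn deletion, against 24.8 and 26.02 TPM in WT. It had the lowest fold change of the list and was not called by limma (adjusted p = 0.329). Digestive enzymes of the gut had 5 of 51 tested members above both WT libraries and 14 below and a median of −1.06, which was −0.06 without *WT* replicate 1. Of its serine proteases, *Jon66Ci* had 69.2 and 6759 TPM in Smn deletion, against 5495 and 3769 TPM in WT, and *Jon65Aiii* had 1815 and 1078 TPM in Smn deletion, against 7987 and 1664 TPM in WT. The gut marker *alphaTry* was higher, with 616 and 227 TPM in Smn deletion, against 129 and 47.1 TPM in WT. Another gut marker, *Amy-p*, overlapped between the groups, with 239 and 280 TPM in Smn deletion, against 767 and 269 TPM in WT. Subunits of the V-ATPase, the proton pump of acid-secreting cells, had 4 of 29 tested members above both WT libraries and 8 below, and *Vha13* and *Vha26* both varied more than 5-fold within each group.

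In ecdysone synthesis, none of the 7 tested members was above both *WT* libraries and 4 were below (median −1.42, −2.03 without Smn deletion replicate 2 to −0.94 without *WT* replicate 1). Of the 7, 3 had an Smn deletion mean under 1 TPM and passed the minimum level only through *WT*, so the median is partly set by that minimum. Over all 9 listed genes, with no minimum, 0 lay above both *WT* libraries and 4 below. The P450 enzymes *sad* and *spok* of the prothoracic gland, named after their values were seen, had 0.958 and 3.54 TPM in Smn deletion, against 35.1 and 15.2 TPM in WT, for *sad*, and 0.404 and 0.857 TPM in Smn deletion, against 4.36 and 18.9 TPM in WT, for *spok*. *shd*, the enzyme that makes the active hormone in peripheral tissues, had 21.7 and 1147 TPM in Smn deletion, against 77.9 and 107 TPM in WT, and *mld*, a zinc-finger regulator of the gland's enzymes, had 11.7 and 17.8 TPM in Smn deletion, against 4.52 and 307 TPM in WT. In the ecdysone response list, with 3 of 18 tested members above both WT libraries and 5 below, *br*, broad, a transcription factor of the onset of metamorphosis, had 5.82 and 203 TPM in Smn deletion, against 606 and 9340 TPM in WT (unadjusted p = 0.0156, adjusted p = 0.22). Chosen after their values were seen, the early gene *Eip75B* had 2676 and 186 TPM in Smn deletion, against 159.9 and 131 TPM in WT, and *ftz-f1*, a nuclear receptor of the time between pulses, had 154 and 74.2 TPM in Smn deletion, against 21.5 and 26.8 TPM in WT. *ImpL1*, above, was the only call of this list. *Cyp18a1*, the P450 that inactivates ecdysone, was the most abundant of the cytochrome P450 list and came near a call, with 213 and 1297 TPM in the Smn deletion libraries, against 10.6 and 14.8 TPM in the WT libraries (log2 fold change 5.29 ± 1.16, adjusted p = 0.0687). Both Smn deletion libraries were thus above both *WT* libraries for *ImpL1* and *Cyp18a1* and below them for *br*.

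Juvenile hormone, which holds larvae in the larval state, has a list of 8 tested genes, of which 5 lay below and 2 above both *WT* libraries (median −1.33, −1.68 without Smn deletion replicate 1 to −0.83 without *WT* replicate 1). *Jheh3*, an epoxide hydrolase that degrades the hormone, had 35.3 and 28.97 TPM in Smn deletion, against 69.7 and 62.4 TPM in WT, and *Met*, the hormone's receptor, had 30.3 and 7.56 TPM in Smn deletion, against 8.91 and 428 TPM in WT. The insulin and growth signalling list had 4 of 14 tested members above both WT libraries and 1 below (median 0.97, 0.50 without *WT* replicate 2 to 1.29 without *WT* replicate 1). *S6k*, the kinase under TOR, had 25.7 and 1202 TPM in Smn deletion, against 6.35 and 1092 TPM in WT, and *sima*, the hypoxia factor, had 892 and 84.1 TPM in Smn deletion, against 466 and 17.5 TPM in WT. *ImpL2*, a secreted protein that binds insulin-like peptides, was chosen after its values were seen, with 499 and 447 TPM in Smn deletion, against 9.16 and 31.2 TPM in WT (unadjusted p = 0.00458, adjusted p = 0.13).

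Antimicrobial peptides and related immune effectors had the highest median of the 38 lists in the full comparison, but not without Smn deletion replicate 1. Of the 31 listed genes 22 were tested, 14 of them (63.6%) above both *WT* libraries and 2 below, with a median of 2.46, and 11 were higher at an unadjusted p under 0.05. Of the 22, 10 had a *WT* mean under 1 TPM and passed the minimum level only through the Smn deletion group, and 1 passed only through *WT*, so the share and the median are partly set by that minimum. Over all 31 listed genes, with no minimum, 15 lay above both *WT* libraries and 3 below. The sum over the list was 2777 and 2707 TPM in Smn deletion, against 325 and 1272 TPM in WT. Drosomycin, *Drs*, an antifungal peptide of the Toll pathway, was the most abundant member and overlapped between the groups, with 722 and 2387 TPM in Smn deletion, against 83.1 and 1183 TPM in WT. *BomS1*, of the short Bomanins that Toll signalling induces, had 594 and 12.7 TPM in Smn deletion, against 2.22 and 0.763 TPM in WT (adjusted p = 0.166). Among those chosen after their values were seen, *BomS2* had 224 and 20.9 TPM in Smn deletion, against 0.453 and 1.03 TPM in WT (adjusted p = 0.063), and *BomS3*, the member most alike in both deletion libraries, had 206 and 226 TPM in Smn deletion, against 12.1 and 7.74 TPM in WT. *Mtk*, metchnikowin, had 36.7 and 9.52 TPM in Smn deletion, against 1.04 and 0.0274 TPM in WT, and *DptB*, a diptericin of the Imd pathway, had 81.6 and 2.85 TPM in Smn deletion, against 0.425 and 0.0472 TPM in WT. In all tested members but *Drs* and *BomS3*, replicate 1 of Smn deletion was the higher of its 2 libraries, and the list's median was 0.84 without it and 4.22 without replicate 2. *Drsl2* went the other way, with 1.69 and 0.613 TPM in Smn deletion, against 24.2 and 49.4 TPM in WT (adjusted p = 0.0843). The Bomanins are close copies of each other in one cluster, so their levels are not independent.

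Chaperone genes had the next highest median. The heat shock list had 8 of 14 tested members above both WT libraries and 1 below (median 1.15, 0.79 without *WT* replicate 2 to 1.68 without Smn deletion replicate 2). The constitutive *Hsc70-4* had 5446 and 944 TPM in Smn deletion, against 254 and 4102 TPM in WT, and *Hsp23*, a small heat shock protein, had 635 and 409.8 TPM in Smn deletion, against 3024 and 618 TPM in WT. The Hsp70 copies, near-identical genes whose reads may be split, were chosen after their values were seen, and *Hsp70Bb* had 97.5 and 149 TPM in Smn deletion, against 5.57 and 5.41 TPM in WT and *Hsp70Aa* 186 and 6.49 TPM in Smn deletion, against 1.10 and 0.911 TPM in WT. Cell death and stress genes had 6 of 16 tested members above both WT libraries and 2 below (median 0.96, 0.11 without Smn deletion replicate 1 to 1.72 without Smn deletion replicate 2). *Thor*, the translation inhibitor 4E-BP, had 538 and 177 TPM in Smn deletion, against 339.9 and 167 TPM in WT, and *Mmp1*, a matrix metalloprotease induced by JNK signalling, had 393 and 62.7 TPM in Smn deletion, against 780.03 and 26.04 TPM in WT. *Ets21C*, a transcription factor of the stress response chosen after its values were seen, had 84.6 and 18.4 TPM in Smn deletion, against 2.26 and 0.342 TPM in WT (unadjusted p = 0.00226, adjusted p = 0.09). *crc*, the fly ATF4, had 226 and 178 TPM in Smn deletion, against 56.4 and 11.8 TPM in WT, and *Gadd45* had 47.98 and 96.6 TPM in Smn deletion, against 7.27 and 6.34 TPM in WT. Autophagy genes had 4 of 20 tested members above both WT libraries and 7 below, with *Atg8a* at 425 and 123 TPM in Smn deletion, against 104 and 549.6 TPM in WT and *Atg2* at 5.94 and 10.996 TPM in Smn deletion, against 3038 and 196 TPM in WT. Glutathione S-transferases had 9 of 33 tested members above both WT libraries and 6 below, and *GstT4* had 1634 and 478 TPM in Smn deletion, against 246 and 179 TPM in WT, while *GstD1* had 821 and 298 TPM in Smn deletion, against 319 and 254 TPM in WT. Cytochrome P450 genes had 15 of 66 tested members above both WT libraries and 24 below, and *Cyp4s3* had 311 and 62.7 TPM in Smn deletion, against 97.97 and 328 TPM in WT.

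Genes of protein synthesis and breakdown differed in sign. Cytosolic ribosomal proteins had 16 of 83 tested members above both WT libraries and 11 below, with a median of 0.29 that was −0.06 without *WT* replicate 2. Single genes varied between libraries far beyond the group difference, as *RpS15Aa* with 24024 and 1165 TPM in Smn deletion, against 2419 and 1748 TPM in WT and *RpS5a* with 2625 and 26867 TPM in Smn deletion, against 2582 and 1180 TPM in WT. Translation factors had 8 of 50 tested members above both WT libraries and 20 below (median −0.52, −0.72 without Smn deletion replicate 1 to −0.61 without *WT* replicate 2). *eIF4A*, the helicase of initiation, had 7759 and 4657 TPM in Smn deletion, against 721 and 390.5 TPM in WT, and *eEF1alpha1*, of elongation, had 1468 and 45613 TPM in Smn deletion, against 8617 and 13231 TPM in WT. Proteasome subunits had 1 of 32 tested members above both WT libraries and 13 below, and their median of −0.76 (−1.05 without *WT* replicate 2 to −0.45 without *WT* replicate 1) kept its sign in all alternatives. *Rpn8* had 60.3 and 33.5 TPM in Smn deletion, against 2419 and 73.9 TPM in WT, where *WT* replicate 1 stood alone, and *Prosbeta2* had 99.4 and 1603 TPM in Smn deletion, against 174 and 192 TPM in WT. The secretory pathway had 1 of 17 tested members above both WT libraries and 1 below, and its chaperone *Hsc70-3*, BiP, stayed within 2-fold over the 4 libraries, with 598 and 642 TPM in Smn deletion, against 540.4 and 818 TPM in WT, unlike calreticulin, *Calr*, with 48.02 and 4779 TPM in Smn deletion, against 262 and 436 TPM in WT.

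In energy metabolism, glycolytic genes had 4 of 15 tested members above both WT libraries and 6 below (median −1.21, −1.31 without Smn deletion replicate 1 to −0.56 without *WT* replicate 2). *Eno*, enolase, had 1344 and 704 TPM in Smn deletion, against 3316 and 1518 TPM in WT, and *Gapdh1* had 666 and 264 TPM in Smn deletion, against 2384 and 2676 TPM in WT. *Gapdh2*, its paralog, was chosen after its values were seen and had 29.3 and 40.8 TPM in Smn deletion, against 1974 and 1234 TPM in WT (unadjusted p = 0.00503, adjusted p = 0.134). The 6 members below both *WT* libraries were *Gapdh1*, *Gapdh2*, *Tpi*, *Pglym78*, *Eno* and *Ldh*, and the 4 above were *Gpo1*, *Hex-A*, *PyK* and *Gpdh1*, the last with 135 and 492 TPM in Smn deletion, against 63.4 and 29.1 TPM in WT. Nuclear genes of the respiratory chain had 12 of 80 tested members above both WT libraries and 20 below and a median of 0.04 (−0.23 without Smn deletion replicate 1 to 0.09 without Smn deletion replicate 2). *ATPsynbeta* had 636 and 693 TPM in Smn deletion, against 1614 and 392 TPM in WT, and *ATPsynF* had 145 and 127 TPM in Smn deletion, against 103 and 3327 TPM in WT. Mitochondrially encoded genes had 3 of 13 tested members above both WT libraries and 3 below, with *mt:CoIII* at 5618 and 3093 TPM in Smn deletion, against 1057 and 1116 TPM in WT and *mt:Cyt-b* at 2745 and 2974 TPM in Smn deletion, against 1990 and 518 TPM in WT. Lipid genes had 3 of 17 tested members above both WT libraries and 5 below. Fatty acid synthase, *FASN1*, had 56.3 and 4034 TPM in Smn deletion, against 186 and 9987 TPM in WT, and the lipid droplet protein *Lsd-2* had 3184 and 64.9 TPM in Smn deletion, against 649.7 and 619 TPM in WT.

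Odorant-binding proteins had 19 tested members of 51 listed, with 6 above and 3 below both *WT* libraries. Apart from *Obp99b*, the most abundant was *Obp99c*, with 231 and 25.1 TPM in Smn deletion, against 679 and 87.7 TPM in WT.

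In the SMN complex and its partners in snRNP assembly, members lay on both sides. Of 17 tested members 6 lay above and 7 below both *WT* libraries, *Smn* included, with a median of −1.23 (−0.07 without *WT* replicate 1). The Sm ring protein *SmB* had 3.34 and 12.3 TPM in Smn deletion, against 568 and 6.97 TPM in WT, where *WT* replicate 1 held most of the level, and *vls*, valois, a WD-repeat partner of the methylosome, had 13.5 and 1.20 TPM in Smn deletion, against 149 and 1.87 TPM in WT. Chosen after their values were seen, the Sm proteins *SmD1* and *SmF* had 4.26 and 6.14 TPM in Smn deletion, against 15.5 and 33.7 TPM in WT, for *SmD1*, and 5.20 and 6.81 TPM in Smn deletion, against 30.5 and 14.7 TPM in WT, for *SmF*. *Gem2*, whose human counterpart holds the Sm proteins in the complex, had 4.05 and 2.40 TPM in Smn deletion, against 18.7 and 6.38 TPM in WT, whereas the complex member *Gem3*, a helicase, had 10.1 and 19.6 TPM in Smn deletion, against 3.69 and 1.65 TPM in WT. None was called by limma, and 2 were higher and 1, *Smn* itself, lower at an unadjusted p under 0.05. Nonsense-mediated decay genes had 2 of 10 tested members above both WT libraries and 2 below, and *Smg6*, the endonuclease of the pathway, had 68.3 and 695 TPM in Smn deletion, against 16.1 and 7.60 TPM in WT, while *Smg5* had 1342 and 47.1 TPM in Smn deletion, against 229 and 28.8 TPM in WT.

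Called genes were counted by chromosome arm. Arm 3R held 44 rises and 8 falls of 2776 tested genes, 3L 41 and 8 of 2338, 2R 21 and 10 of 2280, 2L 12 and 5 of 2050, and the fourth chromosome none of 78. The X chromosome held 25 rises and 1 fall of 1871. Its median log2 fold change was 0.25, against −0.41 on 2L, −0.30 on 2R, −0.30 on 3L, −0.08 on 3R and −0.10 on the fourth chromosome. On X, 27.6% of the tested genes lay above both *WT* libraries and 18.2% below. The X median was −0.05 without Smn deletion replicate 1 and 0.00048 after centring on the 10 genes listed around each gene. The dosage compensation genes, which raise the output of the single male X, had 1 of 7 tested members above both WT libraries and 3 below (median −0.25, −1.03 without *WT* replicate 2 to 0.0038 without *WT* replicate 1). The roX RNAs had 31.5 and 413 TPM in Smn deletion, against 88.3 and 37.7 TPM in WT for *roX1* and 4.40 and 0.798 TPM in Smn deletion, against 14.5 and 127 TPM in WT for *roX2*.

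**Figure D5:**
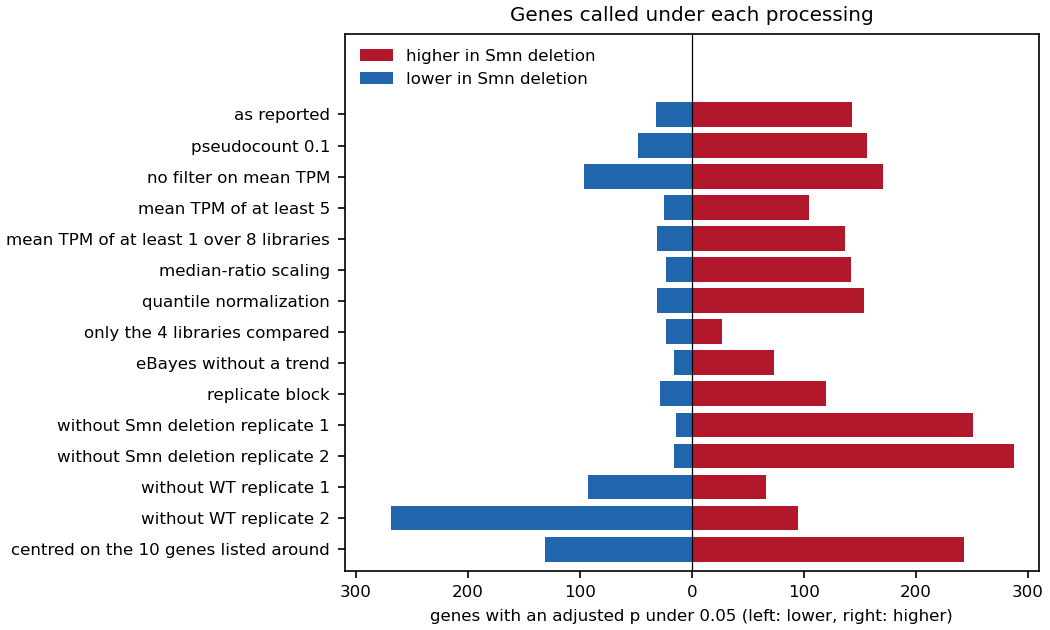
Number of genes called higher (red, to the right) and lower (blue, to the left) in Smn deletion at an adjusted p under 0.05, as reported (top) and under each of the 14 alternatives. The fewest calls, 50, came from a fit of the 4 Smn deletion and *WT* libraries alone, and the most, 374, after centring on listed neighbours.

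The count of calls moved more with the choice of fit than with median-ratio scaling (165 calls) or quantile normalization (185 calls). It moved most after centring on listed neighbours. With only the 4 libraries compared, limma called 27 rises and 23 falls, and without a trend in the prior variance 73 and 16. Without Smn deletion replicate 1 it called 251 rises and 14 falls, and without replicate 2 it called 288 and 16. Without *WT* replicate 1 the median log2 fold change over all genes tested was 0.02, and without *WT* replicate 2 it was −0.26. Leaving out a library leaves a lone one in its group and changes the estimate of the spread. The counts without a library therefore cannot show what the larger number of rises in the full comparison rests on. When each gene was centred on its 10 listed neighbours the counts were 243 and 131.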

How the data were processed

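Whole L3 larvae of 4 strains were measured by RNA-seq, with 2 libraries per strain. The authors trimmed and filtered the reads and mapped them with TopHat to dm6, and their processing notes also name featureCounts. They deposited TPM for each library separately. The step from reads to TPM is not given in the sources used here, and the files hold no read numbers. Deposited values were used as log2(TPM + 1), without rescaling. Symbols came from a table of gene names that matched 17330 of the 17473 IDs.

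Libraries were grouped by genotype as labelled. Strains were fitted together in R 4.3.3 with limma 3.58.1, one mean for each of 4 groups over 8 libraries, and the contrast of Smn deletion minus *WT* was tested with eBayes and a trend. Adjusted p is the Benjamini-Hochberg value across all 11438 genes in the fit, and a gene was called below 0.05. The SE of a fold change is limma's moderated one. Tables and plots were made in Python 3.11.15 with pandas 2.3.3, numpy 2.4.6 and matplotlib 3.10.9. The fit was run on simulated data with a smaller spread between libraries than the real one. That run cannot show how calls behave at the real spread.

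The genes and 41 lists were chosen with earlier results of these data known, and 3 lists (cuticle, salivary glue and fat body storage) were set apart. Named were *Smn*, *Pcyt2*, *Zmynd10* and *Fas3*, the 15 largest rises and 10 largest falls among called genes whose groups do not overlap, outside the lists set apart, and for each other list up to 4 called genes or, failing 2, its most abundant members. Genes chosen after their values were seen are marked as such. Of the ecdysone synthesis list, 2 entries that matched a wrong gene were dropped after the values were seen, and 9 entries with no match were not used. The alternatives were a pseudocount of 0.1, no minimum level, a mean of at least 5 TPM, the minimum taken over 8 libraries, median-ratio scaling, quantile normalization, only the 4 libraries compared, no trend, the replicate number as a block, leaving out each library, and centring each gene on 10 genes listed around it. *U12* and *U6atac* deletion were not tested against *WT* here, and their levels are given beside some called genes.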

Additional observations from a re-analysis of the deposited data

How the results depend on the processing

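The 2 libraries of a strain disagreed on many genes, and the counts of calls moved with the fit. Of 175 calls, limma gave 267 with no minimum level, 50 with only the 4 libraries compared, 89 without a trend and 374 after centring on listed neighbours. The 143 rises became 27 with only the 4 libraries, 73 without a trend and 243 after centring. The 32 falls became 96 with no minimum level, 16 without a trend and 131 after centring. The 122 calls outside the lists set apart became 221 with no minimum level, 81 at a mean of at least 5 TPM, 17 with only the 4 libraries, 51 without a trend and 314 after centring. Leaving out one library gave 159 calls (without *WT* replicate 1) to 364 (without *WT* replicate 2), 66 to 288 rises, 14 to 269 falls and 122 to 319 calls outside the lists. The total was 265 without Smn deletion replicate 1 and 304 without Smn deletion replicate 2. With fewer samples or other genes tested these counts are built to differ, and the cause was otherwise not tested. A lone library left in a group is assumed to vary like the other groups. Of the 122 calls outside the lists, 11 (9 rises and 2 falls) were called under all 14 alternatives.

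Of the genes named with a fold change and not called, *Smn* had log2 fold changes of −4.05 to −2.30, *Pcyt2* of −4.01 to 0.62, *Zmynd10* of −0.31 to 1.21 and *Fas3* of −0.66 to 2.27 when one library was left out, and after centring *Zmynd10* had −0.72 and *Smn* −3.81, with *Smn* then called (adjusted p = 0.0176). Among 73 other named list genes, given as levels, 39 changed the sign of their difference in at least one alternative, and 24 of the 41 list medians had one sign in all. The replicate number as a block gave 148 calls, 140 of them among the 175. Same-numbered libraries of Smn deletion and *WT* share only a number, and their deviations correlated at 0.0021 across genes.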
